A study of Mus musculus with 20 samples.

Results

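FAIRE peaks outside both H3K4 marks are regions called by FAIRE, an assay of open chromatin, in CD4+/CD8+ double-positive mouse thymocytes. They shared no base with any deposited H3K4me3 or H3K4me1 peak. They numbered 3979 of 11176 FAIRE peaks, or 35.6% (95% Wilson interval 34.7 to 36.5), and are called unmarked here. Of the other 7197 FAIRE peaks, called marked, 5132 overlapped an H3K4me3 peak and 2065 overlapped an H3K4me1 peak only. The members were chosen by the measured peak positions of FAIRE, H3K4me3 and H3K4me1, so the absence of the marks is not a finding.

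FAIRE separates crosslinked chromatin by phenol extraction, and DNA that is poor in nucleosomes stays in the aqueous phase and is sequenced without an antibody. H3K4me3 is the usual mark of nucleosomes beside active promoters, and H3K4me1 without H3K4me3 is found at many enhancers. Histone marks sit on nucleosomes, so the open core of a marked promoter or enhancer can itself hold little of the mark while the nucleosomes on its flanks hold much. Double-positive thymocytes are the intermediate stage of T-cell development in which the T-cell receptor alpha locus is rearranged.

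All samples were wild-type double-positive thymocytes of C57BL/6 mice, with an age of 5 to 6 weeks in the FAIRE and RNA protocols. Chromatin was sonicated for 14 cycles for FAIRE and for 10 cycles for immunoprecipitation. Peak lists of 16 of the 20 samples were used, each for its own target, and they held 270514 peaks in all. The other 4 samples were not analysed here, gene annotation and genome sequence of mm9 were not used, and the identity of the cells was therefore not checked against marker genes. Since no target had lists of separate replicates, variation between animals was not measured and no p-value was computed. Intervals are 95% and cover counting error only. By the file names, a single replicate stood behind each of the CBP, Taf1 and TFIIB lists, and merged replicates behind the other 13. The FAIRE track had no stated background subtraction, scaling or removal of artefact regions, while the track names of the other 15 lists recorded all of these.

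Few unmarked FAIRE peaks held a peak of the transcription machinery. Of the 3979, 3486 (87.6%, 86.5 to 88.6) overlapped none of the 12 lists of CBP, ETS1, TBP, the Pol II forms and the 6 general factors, against 2011 of 7197 marked FAIRE peaks (27.9%, 26.9 to 29.0) and a background of 49.2% of all FAIRE peaks. The share without a factor was 52.8% at FAIRE peaks with H3K4me1 only and 17.9% at those in H3K4me3. The difference, marked minus unmarked, was -59.7 percentage points (Newcombe interval -61.1 to -58.2). It had the same direction on 20 of 20 chromosomes, with Y left out.

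TBP, the subunit of TFIID that binds the TATA element, lay at 206 unmarked FAIRE peaks (5.18%, 4.53 to 5.91), against 34.0% of all FAIRE peaks. The share was 21.4% at peaks with H3K4me1 only and 61.4% in H3K4me3. TFIIB, which bridges TBP and Pol II, lay at 197 unmarked peaks (4.95%, 4.32 to 5.67; background 27.8%). TFIIE, which helps to load TFIIH, lay at 145 (3.64%, 3.11 to 4.27; background 24.7%). These 3 factors were each found at 36.4 to 50.0% of marked FAIRE peaks.

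The other general factors were rarer at FAIRE peaks of every kind. Taf1, the largest subunit of TFIID, lay at 45 unmarked peaks (1.13%, 0.846 to 1.51; background 2.17%). TFIIA, which stabilises TBP on DNA, lay at 40 (1.01%, 0.739 to 1.37; background 4.26%). TFIIH, which holds the helicase that opens the promoter and the kinase of the Pol II tail, lay at 33 (0.829%, 0.591 to 1.16; background 4.74%). TFIIF, which enters with Pol II, lay at 7 (0.176%, 0.0852 to 0.363; background 2.10%). Taf1 was the general factor with the smallest ratio between marked and unmarked peaks, at 2.42, and the only 1 of the 6 whose share was higher at unmarked peaks than at peaks with H3K4me1 only, where it was 0.533% (0.298 to 0.951). Of the 45 unmarked peaks with Taf1, 12 lay in the dense runs of unmarked peaks described further on, which held 18.4% of all unmarked peaks. Any of the 6 general factors lay at 328 unmarked peaks (8.24%, 7.43 to 9.14; background 36.3%) and at 51.8% of marked peaks.

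Total Pol II lay at 122 unmarked FAIRE peaks (3.07%, 2.57 to 3.65; background 30.3%) and at 45.4% of marked ones. Ser5P, the form phosphorylated near initiation, lay at 104 (2.61%, 2.16 to 3.16; background 19.0%). Ser2P, the form of productive elongation, lay at 13 (0.327%, 0.191 to 0.558; background 0.644%), and the share was higher in marked peaks on 12 of 20 chromosomes only. Of the 122 unmarked peaks with total Pol II, 71 also held Ser5P (58.2%, 49.3 to 66.6), against 56.5% of marked peaks with total Pol II. Among the marked ones it was 34.8% (29.2 to 40.8) with H3K4me1 only and 58.3% (56.5 to 60.1) in H3K4me3. Within 500 bp of a mark, 69 of 111 unmarked peaks with total Pol II held Ser5P, and beyond 500 bp 2 of 11 did. Of the 206 with TBP, 90 also held total Pol II (43.7%, 37.1 to 50.5), against 47.1% (42.5 to 51.7) with H3K4me1 only and 79.2% (77.7 to 80.6) in H3K4me3. The shares at unmarked peaks moved with the rule for a mark by more than their counting intervals. When the centre of the FAIRE peak decided, TBP lay at 13.0% and total Pol II at 10.2%. With the upper 50% of the mark lists by area the values were 10.6% and 7.51%, and with peaks within 500 bp of a mark counted as marked they were 0.398% and 0.336%.

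CBP, an acetyltransferase coactivator found at enhancers and promoters, lay at 81 unmarked FAIRE peaks (2.04%, 1.64 to 2.52; background 11.5%). ETS1, a DNA-binding factor of the T-cell lineage, lay at 31 (0.779%, 0.549 to 1.10; background 10.0%). Marked FAIRE peaks held CBP at 16.8% and ETS1 at 15.1%. Peaks with H3K4me1 only and peaks in H3K4me3 had similar shares of CBP, at 16.5% and 16.9%, and of ETS1, at 15.7% and 14.9%. Of the 81 unmarked peaks with CBP, 11 also held ETS1 (13.6%, 7.76 to 22.7), against 37.1% of marked FAIRE peaks with CBP.

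H3K36me3, the mark laid down over the bodies of transcribed genes, was the 1 list of the 13 found at a higher share of unmarked than of marked FAIRE peaks. It covered 127 of them (3.19%, 2.69 to 3.78; background 1.55%), 1.11% of peaks with H3K4me1 only and 0.448% of peaks in H3K4me3. The difference, marked minus unmarked, was -2.55 percentage points (-3.17 to -2.01), and on 0 of 20 chromosomes was the share higher in marked peaks. By length, 2.03% of the bases of unmarked FAIRE peaks and 0.355% of those of marked peaks were in H3K36me3. Of the 49181 H3K36me3 peaks, 45564 themselves lay outside both H3K4 marks, so this contrast is partly tied to the rule. The H3K36me3 peaks totalled 104 Mb, where the chromosomes spanned 2573 Mb from the first to the last peak of any list. Enrichment of unmarked FAIRE peaks in H3K36me3 over the genome was not tested.

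**Figure D1:**
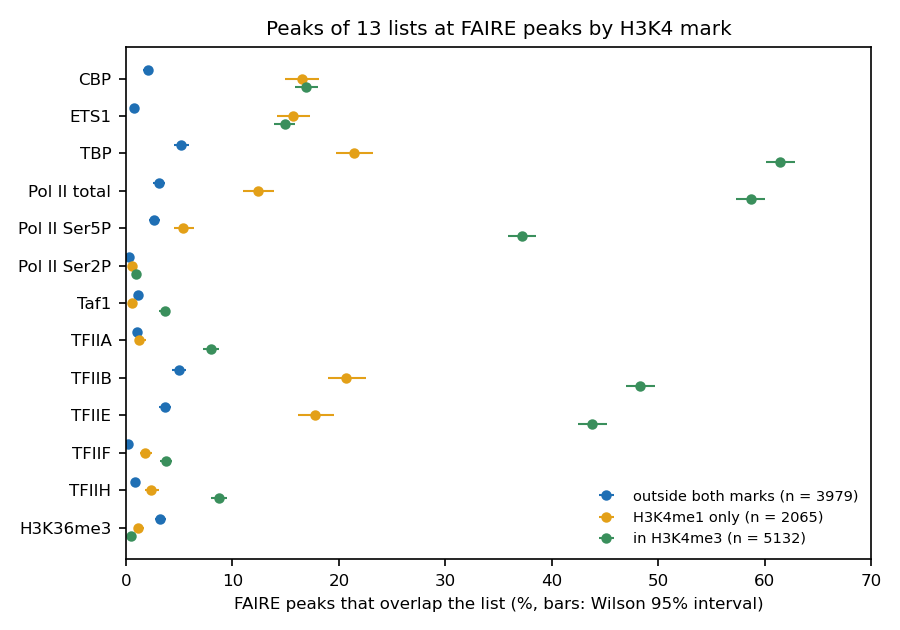
Share of FAIRE peaks that overlap each of 13 lists (x axis, percent, points with Wilson 95% intervals) for the 3979 peaks outside both marks, the 2065 with H3K4me1 only and the 5132 in H3K4me3. Unmarked peaks lie lowest for TBP (5.18%), total Pol II (3.07%) and CBP (2.04%) and highest for H3K36me3 (3.19%).

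The unmarked peaks with a factor also held fewer kinds of factor. Of the 493 that overlapped at least 1 of the 12 lists, 219 (44.4%, 40.1 to 48.8) overlapped 2 or more. This compares with 78.5% of 5186 marked FAIRE peaks with a factor, made up of 56.8% (53.7 to 59.9) with H3K4me1 only and 83.5% in H3K4me3. Unmarked peaks within 500 bp of a mark were at 55.3% (49.7 to 60.7), near those with H3K4me1 only, and those beyond 500 bp at 25.6% (19.7 to 32.4). TFIIB was the only list at 81 unmarked peaks and TBP at 57, whereas total Pol II was the only list at 11. The peaks with the most lists were all within 110 bp of a marked region. Both at chr11:115885781-115886100 and at chr13:23790341-23790490, 9 lists met. These were CBP, TBP, total Pol II, Ser5P, Taf1, TFIIA, TFIIB, TFIIE and TFIIH, at 20 bp and 50 bp from a mark. The peaks at chr10:80600031-80600290 and chr5:150438821-150438990 held 8 lists each, the first lacking TFIIB and the other Taf1 among those 9. The peak at chr9:31019371-31019570 held 7 lists, with neither CBP nor TFIIH.

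Unmarked FAIRE peaks lay at a median of 11.7 kb (10.8 to 12.5) from the nearest marked region, with quartiles at 2.13 and 44.6 kb. Their distance is above 0 by the rule and is given as a description. A group of 492 (12.4%) lay within 100 bp of a mark, 709 (17.8%, 16.7 to 19.0) within 500 bp, and 653 (16.4%) beyond 100 kb. Fewer of the unmarked peaks of CBP (6.86% of 3426), TFIIH (4.23% of 6080) and Taf1 (2.52% of 11884) lay within 500 bp, and their medians were 52.0, 48.9 and 74.4 kb. Some other lists came closer to FAIRE in their share within 500 bp. Unmarked peaks of TBP had 26.9% within 500 bp, those of TFIIB 19.0% and those of total Pol II 13.5%. Their medians were 15.2, 28.8 and 10.5 kb, and 31.1%, 36.7% and 23.4% of them lay beyond 100 kb, more than for FAIRE. The nearest mark was H3K4me1 for 3018 unmarked FAIRE peaks, H3K4me3 for 774, and equally far for 187. H3K4me1 peaks were also the more numerous, at 74607 against 28013.

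**Figure D2:**
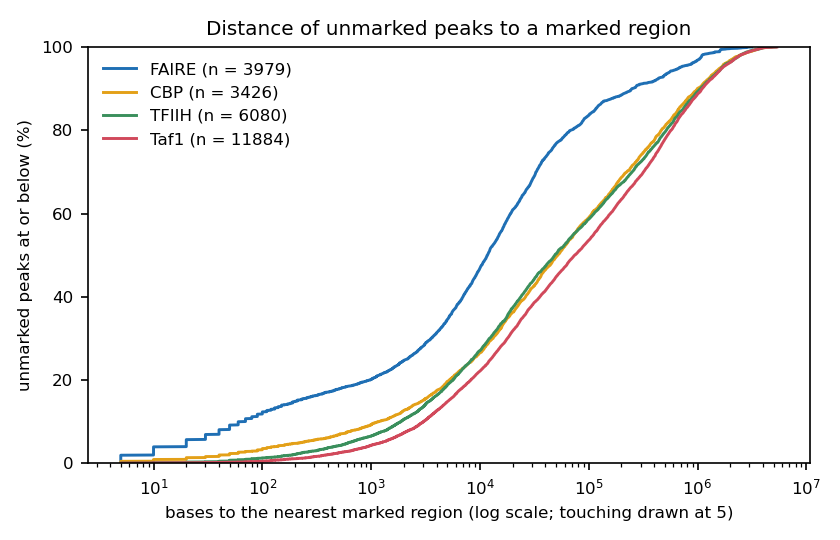
Cumulative share (y axis, percent) of unmarked peaks of FAIRE, CBP, TFIIH and Taf1 by bases to the nearest H3K4me3 or H3K4me1 peak (x axis, log scale). The FAIRE line has reached 17.8% at 500 bp, where Taf1 is at 2.52%.

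At the border of the rule, 78 unmarked peaks touched a marked region with no base between, and 111 marked FAIRE peaks overlapped one by 10 bp, the width of 1 bin. Both sets had a median width of 110 bp. A factor lay at 57.7% of the 78 and at 46.8% of the 111. The touching peaks of highest area were at chr12:93087571-93087930, with TBP, at chr8:86760971-86761240, with 6 lists, and at chr5:23536441-23536690, with TBP and total Pol II. Just inside a mark, the peaks at chr14:63456081-63456400 and chr11:60740841-60741070 held TFIIE and TFIIA, and the peak at chr16:20535311-20535520 held no factor.

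The factors at unmarked peaks were concentrated beside marks. Of the unmarked peaks with TBP, 93.7% lay within 500 bp of a marked region, as did 93.3% of those with Ser5P and 91.0% of those with total Pol II, against 17.8% of all unmarked peaks. TBP lay at 27.2% of the 492 unmarked peaks within 100 bp and at 27.2% of the 217 between 100 and 500 bp. At 500 bp to 2 kb the TBP share was 0.725% of 276, at 2 to 10 kb 0.568% of 880, and at 10 to 100 kb 0.411% of 1461. Beyond 100 kb it was 0 of 653, which allows a share of up to 0.459%. Total Pol II followed the same course, from 17.1% and 12.4% in the nearest bands to 0.362% or 0.411% and less in each band past 500 bp, and TFIIE went from 18.1% and 12.4% to 1.82% or less. CBP lay at 8.13% and 6.91% in the nearest bands and at 0.753 to 1.09% in the other bands. The distance bands were chosen with the data in view.

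For Taf1, Ser2P, ETS1 and TFIIB, smaller shares lay beside marks. Only 13.3% of the unmarked peaks with Taf1 lay within 500 bp of a mark. The share was 38.5% of the 13 with Ser2P, 38.7% of those with ETS1 and 55.3% of those with TFIIB. Next came TFIIH at 60.6% and CBP at 67.9%. The Taf1 share was 1.02% within 100 bp, 0.362 to 1.03% in the 4 bands between, and 2.30% beyond 100 kb. ETS1 had 2.03% within 100 bp, 0.922% at 100 to 500 bp and 0 of 276 at 500 bp to 2 kb, which allows a share of up to 1.09%. It then had 0.341% at 2 to 10 kb, 0.479% at 10 to 100 kb and 1.38% beyond 100 kb. Of the 31 unmarked peaks with ETS1, 7 lay in dense runs, which held 18.4% of all unmarked peaks. TFIIB had 16.9% within 100 bp and between 2.26 and 3.52% in each band past 500 bp.

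**Figure D3:**
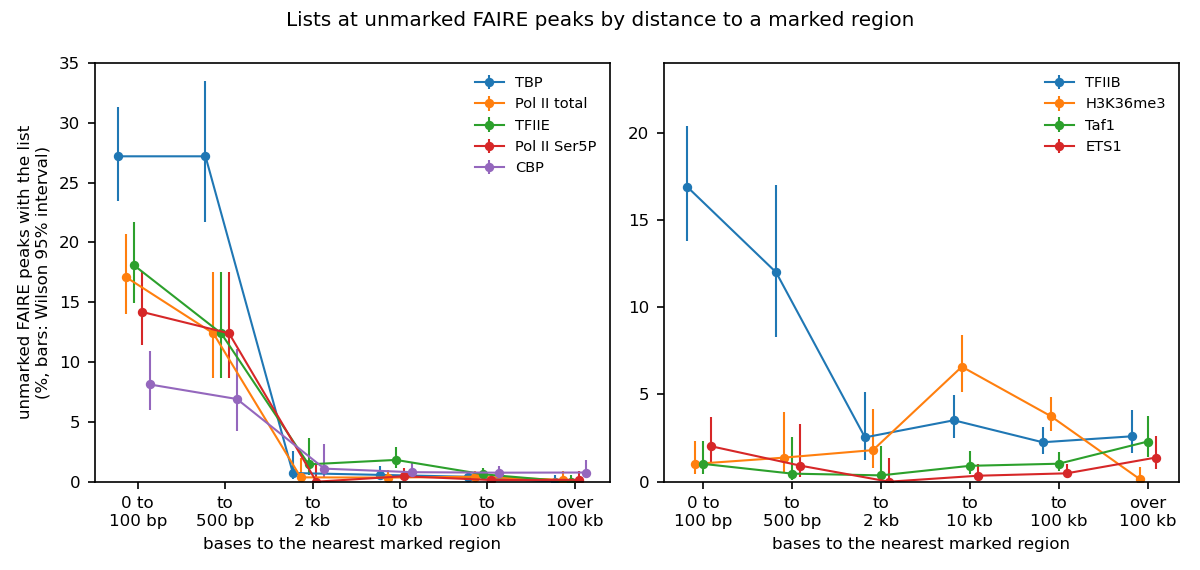
Share of unmarked FAIRE peaks that overlap each list (y axes, percent, points with Wilson 95% intervals) in 6 bands of distance to the nearest marked region (x axis). TBP, total Pol II, TFIIE, Ser5P and CBP (left) drop past 500 bp, with TBP going from 27.2% to 0.725%, while H3K36me3 (right) is highest at 2 to 10 kb, at 6.59%.

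Peaks with marks on both flanks held the most factors. Of the 709 unmarked peaks within 500 bp, 309 had a marked region within 500 bp on each side, with a median of 330 bp between the 2 regions. Of these 309, 43.4% (38.0 to 48.9) held TBP, 27.8% total Pol II, 23.3% TFIIB and 12.3% CBP, and 34.0% held no factor. Of the 400 with a mark on 1 side only, 14.8% (11.6 to 18.6) held TBP, 6.25% total Pol II, 9.25% TFIIB and 4.25% CBP, and 72.8% held no factor. H3K4me3 was the nearest mark for 181 of the 309, and for 19.5% of all unmarked peaks.

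Beyond 500 bp, 3090 of 3270 unmarked peaks (94.5%, 93.7 to 95.2) held no factor. TBP lay at 13 of them, total Pol II at 11, TFIIA at 8 and Ser5P at 7. TFIIB lay at 88, in 56 of them as the only list, Taf1 at 39, TFIIE at 29 and CBP at 26. Of the 39 with Taf1, 22 also held TFIIB, 12 CBP, 8 ETS1 and 3 TBP. At marked FAIRE peaks, 87.3% of the 197 with Taf1 held TFIIB and 93.4% held TBP. At least 1 of CBP, Taf1 and TFIIB was found at 117 of the 180 distant peaks with a factor (65.0%), and 90 of the 117 held none of the other 9 factor lists. The share of the 3 lists together was not computed for marked FAIRE peaks. There, TFIIB, with or without other lists, lay at 2908 of the 5186 with a factor, so the 65.0% is not shown to be unusual. CBP, Taf1 and TFIIB are the 3 lists made from 1 replicate each, and the part of that in the counts was not tested.

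The 127 unmarked peaks in H3K36me3 lay mostly at middle distances. Of these, 113 (89.0%) lay over 2 to 100 kb from a mark, where 22.1% (2 to 10 kb) and 36.7% (10 to 100 kb) of all unmarked peaks lay, and 105 (82.7%) lay wholly inside an H3K36me3 peak. The share with H3K36me3 was 1.02% within 100 bp, 6.59% at 2 to 10 kb, 3.76% at 10 to 100 kb and 0.153% beyond 100 kb. No factor lay at 120 of the 127 (94.5%), the same share as in all unmarked peaks beyond 500 bp, and total Pol II lay at 2 and Ser2P at 1. They were narrow, with a median width of 70 bp and a median area per bp of 5.37 of the authors' track units.

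Width and signal of unmarked FAIRE peaks were mostly close to those of peaks with H3K4me1 only. The median width was 100 bp (quartiles 60 and 140), against 90 bp (60 and 140) with H3K4me1 only and 130 bp (80 and 170) in H3K4me3. A wide peak meets a mark more easily, so width is partly tied to the rule. The median area, which is the authors' signal summed over the peak, was 531, 509 and 758 track units in the same order, and the median area per bp was 5.55, 5.48 and 5.97. The lowest area per bp was 4.82 to 4.84 in each of the 3 classes. Wider peaks held factors more often in marked chromatin, from 55.1% at 30 to 60 bp to 93.1% at 310 bp and more. In unmarked peaks the share went from 9.98% at 30 to 60 bp to 25.0% at 150 to 200 bp, and was 3.91% at 310 bp and more. Outside the dense runs described below, which held all but 31 of the 179 widest, it was 34.7% at 150 to 200 bp, 34.8% at 210 to 300 bp and 16.1% at 310 bp and more.

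The upper tail was another matter. Unmarked peaks reached a width of 5910 bp and an area per bp of 60.8, against 620 bp and 14.6 for marked FAIRE peaks. All 59 FAIRE peaks wider than 620 bp were unmarked, as were all 93 whose area was above the highest marked one. Of those 93, 0 held a factor peak, which by counting error alone allows a share of up to 3.23%. Whether a factor peak could be called there was not tested, since artefact removal was recorded for the factor lists and not for FAIRE. The unmarked 35.6% of FAIRE peaks held 44.4% of the total FAIRE area. The peak of highest area, at chr17:39979861-39985770, was 5910 bp wide, had an area of 247827 and alone held 2.26% of all FAIRE area. It lay 1031 kb from a marked region and 36.8 kb from any peak of the other 15 lists.

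The next peaks by area or width had no factor either. They were at chr11:3042231-3045670 (3440 bp, area 85758), chr2:98506401-98507550 (1150 bp, 59785), chr11:3031971-3034290 (2320 bp, 52823), chrY:2890161-2893140 (2980 bp, 51266) and chr11:3036011-3038890 (2880 bp, 51048). The unmarked peaks farthest from any mark were near the chromosome 2 peak just named. They lay at chr2:98170291-98170420 (3144 kb), chr2:98177101-98177340 (3137 kb) and chr2:98502361-98503190 (2811 kb, with an area per bp of 59.0).

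**Figure D4:**
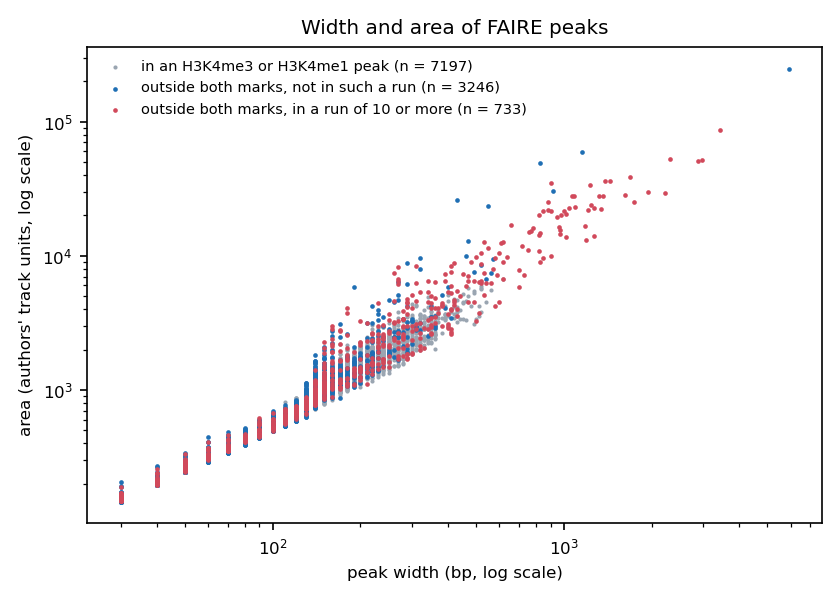
Width (x axis, bp, log scale) and area (y axis, authors' track units, log scale) of each FAIRE peak, with the 7197 marked peaks in grey, the 3246 unmarked peaks outside runs of 10 or more in blue and the 733 in such runs in red. Marked peaks end at 620 bp, and the points beyond that width are mostly red.

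Most of that tail lay in dense runs. A run was a series of unmarked peaks with at most 10 kb from each to the next, a distance chosen with the data in view. Runs of 10 or more numbered 19 and held 733 unmarked peaks (18.4%), 48.8% of the unmarked area and 21.7% of the area of the whole FAIRE list. Of the 59 peaks wider than any marked one, 55 were in these runs, as were 78 of the 93 with more area than any marked one. By the same measure 0 marked FAIRE peaks lay in runs of 10 or more marked peaks, and the most in 1 run was 8. Outside the runs, 2640 unmarked peaks (66.3% of all) had no other within 10 kb, near the 63.5% of marked peaks. The median width was 140 bp in runs and 90 bp outside, and a factor lay at 4.23% of the peaks in runs and at 14.2% outside.

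The largest run held 176 unmarked peaks in 103 kb at chr1:90102391-90205870. The run at chr11:3025651-3100070 held 103 peaks that covered 82.1% of its 74.4 kb and made up 9.35% of all FAIRE area. On chromosome Y, a run at chrY:2848381-2902620 held 92 peaks. Inside the chromosome 11 and Y runs, 0 peaks of the other 15 lists were found, and this held for 7 of the 19 runs. Other runs did hold factor peaks. The one at chr8:19918341-19985850, with 41 unmarked FAIRE peaks, held 24 TFIIB, 22 Taf1 and 9 ETS1 peaks and 0 H3K4 peaks. The runs at chr9:2999931-3038330 and chrX:166407821-166446860 held 49 and 48 unmarked FAIRE peaks, with 7 and 38 peaks of the other lists. The tightest run, at chrX:72919261-72919800, had 4 peaks in 0.54 kb. Artefact regions were recorded as removed for the other 15 lists but not for the FAIRE track. Their part in the runs, and in the runs without a peak of the other lists, was not tested.

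The chromosomes differed in their share of unmarked peaks. On 17 of the 19 autosomes it lay between 24.5% (chromosome 7) and 37.2% (chromosome 8). It was 47.0% (43.7 to 50.3) on chromosome 1 and 54.8% (52.0 to 57.5) on chromosome 2. On X it was 76.5% (69.9 to 82.1), from 140 of 183 peaks, and on Y 98.6%, from 142 of 144. Without the runs of 10 or more, chromosome 1 was at 28.0%, X at 57.0% (47.2 to 66.3) and all autosomes together at 30.7%. Per Mb between the first and last peak of any list, the autosomes had 1.54 unmarked and 2.97 marked FAIRE peaks. X had 0.865 unmarked and 0.266 marked ones, so its high share went with few marked peaks and not with many unmarked ones.

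**Figure D5:**
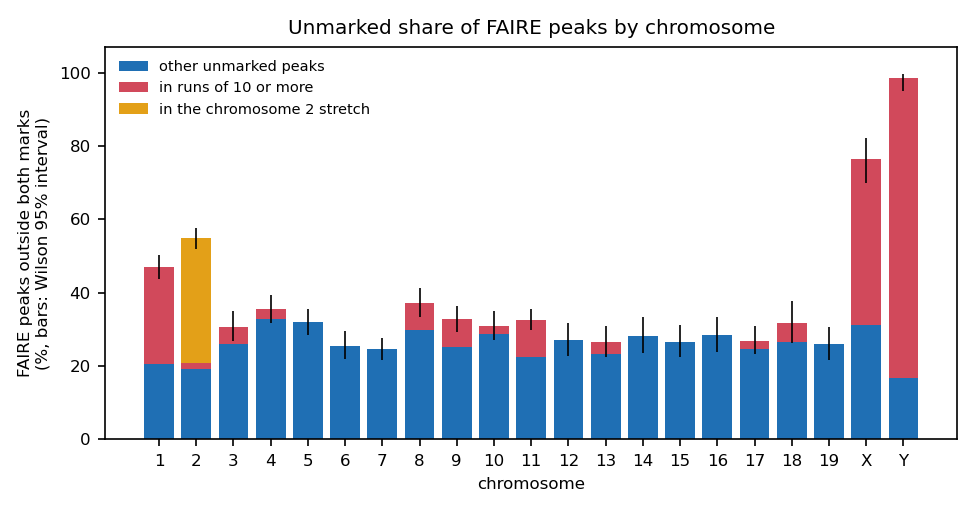
Unmarked share of FAIRE peaks (y axis, percent, with Wilson 95% intervals) on each chromosome (x axis), split into peaks in runs of 10 or more, peaks in the chromosome 2 stretch and other unmarked peaks. Chromosomes 2 (54.8%), X (76.5%) and Y (98.6%) stand above the autosomes together (34.1%).

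On chromosome 1, 232 of 413 unmarked peaks lay in runs of 10 or more, and on chromosome 2, 18 of 672. Between 53 and 83 Mb, chromosome 2 held 418 unmarked FAIRE peaks, 10.5% of all of them and 62.2% of those on the chromosome. This was 13.9 per Mb, against 1.15 per Mb on the autosomes outside the stretch and the runs, and each of the 30 windows of 1 Mb held 1 to 31. The same stretch held 63 marked FAIRE peaks, or 2.10 per Mb. It ended abruptly, with 24, 31 and 22 unmarked peaks in the last 3 windows and 0 in the next 7 Mb, while the 10 Mb before it held 15. None of the 418 was in a run of 10 or more, and 4 of them (0.957%) held a factor. Their median width was 130 bp, against 100 bp for all unmarked peaks, and the widest was 250 bp. No other list gathered there to this degree, since the stretch held 0.683 to 2.04% of the unmarked peaks of the other lists. Without it, the unmarked share on chromosome 2 was 34.0%. The stretch was picked after the positions were seen. As for the runs, the part of artefact regions in it was not tested.

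These subsets left 2138 unmarked peaks (53.7%) that were beyond 500 bp from a mark and in neither the runs nor the chromosome 2 stretch. They lay at a median of 12.4 kb from a mark, had a median width of 80 bp and an area per bp of 5.38. A factor lay at 149 of them (6.97%, 5.97 to 8.13), against 44.1% (40.5 to 47.8) of the 709 within 500 bp, 4.15% of the 723 distant peaks in runs and 0.244% of the 409 distant peaks in the stretch. H3K36me3 lay at 97 (4.54%, 3.73 to 5.50), against 1.13% (0.573 to 2.21) within 500 bp.

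Seen from the other lists, a smaller share of their unmarked than of their marked peaks fell on a FAIRE peak, be it marked or unmarked. For ETS1, 37 of its 133 unmarked peaks (27.8%, 20.9 to 36.0) overlapped a FAIRE peak, and for TFIIB 11.8% of 1817 did. The share was 5.45% for TBP, 2.60% for CBP, 0.526% for TFIIH and 0.429% for Taf1. At marked peaks of the same lists it was 47.3% for ETS1, 32.3% for TFIIB, 30.9% for TBP, 40.7% for CBP, 19.9% for TFIIH and 11.6% for Taf1. Not all of the unmarked peaks on FAIRE met an unmarked FAIRE peak. Those that did were 27 of 37 for ETS1, 159 of 215 for TFIIB and 133 of 210 for TBP. For CBP they were 61 of 89, for TFIIH 25 of 32 and for Taf1 45 of 51. Counted over its own peaks, H3K36me3 went the same way as these lists, with 0.244% of its 45564 unmarked and 1.47% of its 3617 marked peaks on FAIRE. This is the reverse of its direction when counted over FAIRE peaks, where it lay at 3.19% of unmarked and 0.639% of marked ones. Of all unmarked FAIRE peaks, 613 (15.4%) overlapped a peak of any other list, H3K36me3 included, and 127 (3.19%) lay over 100 kb from all of them.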

How the data were processed

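Members, lists, distance bands, runs and the chromosome 2 stretch were chosen with earlier results of these data known. Each deposited file gave peak positions and, as signal, the area under the authors' track over the peak. Areas were compared only between peaks of the same list. Outside the FAIRE list, they served only to pick the upper part of a list in the alternative settings. Per the track names in the file headers, ends fell on bins of 10 bp. Genome build mm9 is per the submitters' processing notes. Not given in the sources used here are the aligner, peak caller, threshold and read depth. Overlap meant at least 1 bp. Marked regions were the union of H3K4me3 and H3K4me1 peaks, and distance was the number of bases between. Shares carry Wilson, differences Newcombe and medians order-statistic 95% intervals. For a count of 0, the share said to be allowed is 3 divided by the number of peaks. That is lower than the Wilson upper limit, as with TBP beyond 100 kb, at 0.459% against 0.585%. Named regions were the 5 peaks of highest area, the 5 widest, the 5 with the most of 12 factor lists, the 3 nearest to and the 3 farthest from a mark, the 3 marked peaks of smallest overlap, and the tightest run of 3 or more. Chromosome 18 was counted but not named, and other runs and the stretch were named after their values were seen. Coordinates are mm9, counted from 1. Tables were made with pandas 2.3.3 and numpy 2.4.6 in Python 3.11.15, intervals with scipy 1.17.1 and figures with matplotlib 3.10.9. The overlap and distance code was tested on simulated peaks.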

Additional observations from a re-analysis of the deposited data

How the results depend on the processing

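The direction of the 7 differences between marked and unmarked FAIRE peaks (CBP, ETS1, TBP, total Pol II, any general factor, H3K36me3 and no factor) was the same in 14 of 14 settings. In what follows, the unmarked share of FAIRE peaks, the median distance and the shares at unmarked peaks that moved beyond their counting interval are given, and the cause was not tested. When the centre of the FAIRE peak decided, 43.7% were unmarked, with a median width of 110 bp, an area per bp of 5.67 and a distance of 6.41 kb. Then CBP lay at 4.24%, ETS1 at 1.92%, TBP at 13.0%, total Pol II at 10.2%, any general factor at 15.6%, H3K36me3 at 2.68% and no factor at 77.6%. Counting peaks within 500 bp of a mark as marked gave 29.3% unmarked at 18.1 kb, CBP 0.795%, TBP 0.398%, Pol II 0.336%, general factors 4.46% and no factor 94.5%. Leaving those peaks out, an alternative chosen after seeing the data, gave 31.2%. The unmarked peaks were then the same ones, so the other values could not differ, namely 18.1 kb, 0.795%, 0.398%, 0.336%, 4.46% and 94.5%. With 2000 bp the values were 26.8%, 22.3 kb, CBP 0.768%, TBP 0.367%, Pol II 0.334%, general factors 4.44%, H3K36me3 3.81% and no factor 94.6%. With the upper 50% of the mark lists by area they were 43.6%, 5.58 per bp, 14.4 kb, CBP 2.83%, ETS1 1.19%, TBP 10.6%, Pol II 7.51%, general factors 13.1%, H3K36me3 2.69% and no factor 80.6%. With the upper 50% of FAIRE peaks they were 30.4%, 140 bp, 6.63 per bp, 14.8 kb, CBP 2.83%, TBP 6.36%, Pol II 4.54%, general factors 10.6%, H3K36me3 1.89% and no factor 85.0%. Autosomes alone gave 34.1%, 5.50 per bp and 10.6 kb. Joining FAIRE peaks within 500 bp gave 33.1%, 5.43 per bp, 9.80 kb, general factors 9.18% and no factor 86.5%. Counting another list within 500 bp gave CBP 3.37%, ETS1 1.51%, TBP 7.39%, Pol II 6.51%, general factors 13.2%, H3K36me3 6.46% and no factor 81.4%. The upper 50% of the other lists gave CBP 1.53%, ETS1 0.352%, TBP 3.59%, Pol II 2.21%, general factors 4.70%, H3K36me3 2.49% and no factor 92.1%. Weighting marked peaks to the widths of unmarked ones gave differences of 12.4 percentage points for CBP, 12.7 for ETS1, 41.3 for TBP, 38.6 for Pol II, 39.2 for general factors and -55.7 for no factor. Weighting to areas gave 12.9, 13.1, 41.4, 39.0, 39.8 and -56.1 in that order. Among alternatives chosen after seeing the data, leaving out runs of 10 or more gave 31.1%, 5.45 per bp, 8.68 kb, TBP 6.32%, general factors 9.49% and no factor 85.8%. Leaving out the chromosome 2 stretch gave 33.3%, 10.1 kb and 86.3% with no factor. No paired analysis was possible because each target had 1 list, and the planned motif content was not run. The unknown depth of each list limits what the absence of an overlap can show.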
